A study of Mus musculus with 2 samples.

Results

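The heme synthesis enzymes examined here were 8 genes of 32286 features, chosen by symbol: Alas1, Alas2, Alad, Uros, Urod, Cpox, Ppox and Fech. Each symbol named 1 feature, and all 8 were detected in both libraries. Heme is the iron-carrying ring of haemoglobin. Its synthesis begins in mitochondria, where an aminolevulinate synthase joins glycine and succinyl-CoA, passes through the cytosol, and ends in mitochondria with the insertion of iron by ferrochelatase. Erythroblasts use the synthase Alas2, which lies on the X chromosome, whereas most other cells use Alas1, whose transcription heme represses. In marrow most heme goes into haemoglobin. Neutrophil precursors also need heme, for myeloperoxidase and for the oxidase that makes superoxide, and every cell needs it for cytochromes.

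Hematopoietic cells from mouse bone marrow had been captured in droplets and their transcripts counted from the 3′ end, with 1 library per group. The control genotype was Mx1Cre+/-;Rosa26+/+ and that of the second library, hereafter the MYC library, was Mx1Cre+/-;Rosa26LSL-MYC/LSL-MYC. Both thus carried Mx1-Cre, a recombinase under an interferon-inducible promoter that is active in many hematopoietic cells, and they differed at Rosa26, where the second carried MYC preceded by a loxP-flanked stop (LSL) on both alleles. The study set out to compare marrow gene expression after MYC overexpression in stem cells. The labels do not state age, strain, sex, Cre induction or whether animals were pooled. Genotype, animal and library preparation cannot be told apart in this design. No test was possible and no p-value is given. Brackets hold 95% intervals for counting error, which leave out variation between animals.

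Total depth was 131884603 unique molecular identifiers (UMIs) over 17073 barcodes for the control and 110012176 over 14496 for the MYC genotype. Filters left 14903 and 12540 cells, with medians of 5343 and 6016 UMIs. The libraries shared 97 barcode sequences. The MYC feature had 0 UMIs in kept erythroid cells of the control and 4 UMIs in those of the MYC library, against 109 UMIs in its mature neutrophils. Names of cell classes stand for clusters that are like the named type by their marker genes, and unnamed clusters held 19.4% and 23.6% of cells. Levels are given as UMIs per 1000000 UMIs of the same class and library (CPM). A UMI from a 3′ end counts 1 molecule whatever the transcript length, although capture can differ between genes.

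Erythroid cells numbered 1166 in the control library (7.82% of kept cells, 7.40 to 8.27) and 348 in the MYC library (2.78%, 2.49 to 3.08). They were placed in 3 stages by markers that include none of the enzymes. The early stage held 161 and 68 cells, with haemoglobin transcripts at 0.34% and 0.07% of UMIs. The haemoglobinizing stage held 739 and 189 cells (11.8% and 16.6% haemoglobin), and the late stage 266 and 91 cells (41.2% and 41.3%). In each stage 11 or 12 of the 12 early markers, all 11 haemoglobinizing markers and all 12 late markers had UMIs. So had 9 or 10 of the 10 mature neutrophil markers, and detection in such sums does not tell stages apart. In the MYC library the early and late stages fell short of 100 cells. Most sub-clusters behind these stages came from 1 library, so a stage can hold cells of differing maturity. In erythroid clusters, 294 of 1460 cells (control) and 240 of 588 (MYC) got no stage, because markers of other classes led them or their UMI counts were low.

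The CPM of each enzyme other than Alas1 was highest in an erythroid stage. Of all Alas2 UMIs in kept cells, 80.6% of those in the control and 64.3% of those in the MYC library lay in staged erythroid cells, which were 7.82% and 2.78% of the cells. For Cpox, the coproporphyrinogen oxidase, the shares were 75.6% and 58.2%. They were 73.8% and 46.2% for Fech, the ferrochelatase, and 69.6% and 53.2% for Alad, which condenses aminolevulinate to porphobilinogen. Uros (68.9% and 45.4%) and Urod (61.6% and 38.9%), which close and then trim the porphyrin ring, followed. Ppox, the protoporphyrinogen oxidase, was the least concentrated of these 7, with 50.8% and 31.4%. The neutrophil lineage, which was 46.2% and 47.3% of the cells, held 23.9% and 36.8% of Ppox UMIs. Alas1 ran the other way: 1.11% and 0.46% of its UMIs lay in staged erythroid cells, and 77.7% and 74.7% in the neutrophil lineage.

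**Figure D1:**
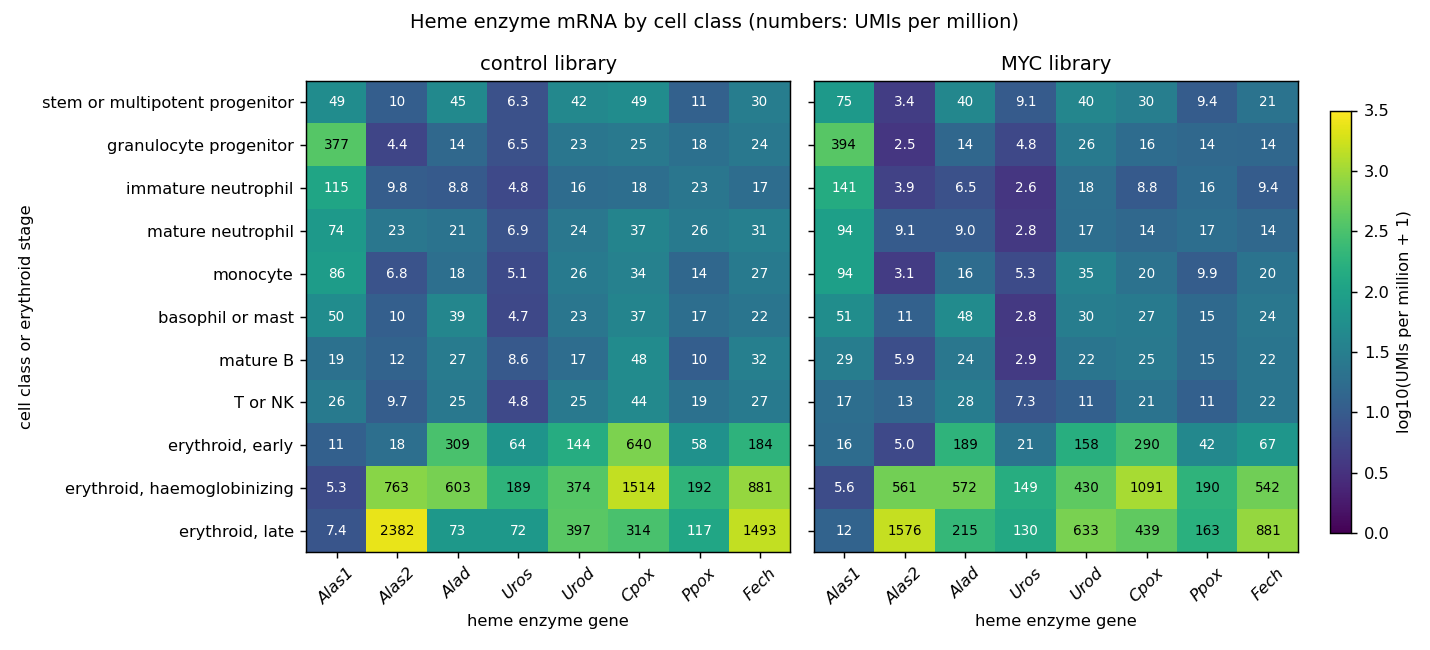
Level of each heme enzyme (columns) in each cell class or erythroid stage (rows), with CPM printed in the cells and log10(CPM + 1) as colour; left, control library, right, MYC library. Alas1 is brightest in granulocyte progenitors (377 and 394 CPM) and the other 7 genes in the erythroid rows.

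The 8 genes are protein-coding and are placed here on GRCm38 with the GENCODE vM21 annotation. Alas1 (ENSMUSG00000032786) spans chromosome 9, 106233455 to 106248654, and Alas2 (ENSMUSG00000025270) chromosome X, 150547375 to 150570638. Alad (ENSMUSG00000028393) spans chromosome 4, 62509169 to 62519918, and Urod (ENSMUSG00000028684) the same chromosome, 116989965 to 116994413. Uros (ENSMUSG00000030979) lies on chromosome 7, 133686243 to 133710072, Cpox (ENSMUSG00000022742) on chromosome 16, 58670292 to 58717636, and Ppox (ENSMUSG00000062729) on chromosome 1, 171275990 to 171281186. The identifier of Fech is ENSMUSG00000024588.

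Promoter sequences are shown for the 3 enzymes with a GATA motif before a start site, because GATA1 drives erythroid transcription, and for Alas1 as the enzyme with the opposite distribution. They are the 250 bases before RefSeq start sites (GRCm38.p6), and 7 of the 8 enzymes had an entry. The motif searched was AGATAA or TGATAA on either strand, and 16.6% of 32851 windows of the same length held it. Capitals mark the match, which describes these letters and shows no binding. Alas2 (chrX:150547167-150547416, plus strand) and Cpox (chr16:58669958-58670207, plus strand) each had 1 match that began 86 bases before the start. Uros had 2 start sites, of which the one nearer the 3′ end of the gene (chr7:133702501-133702750, minus strand) had a match that began 68 bases before the start. Neither window of Alas1 had a match, and 1 of them (chr9:106247731-106247980, minus strand) is shown. No window of Alad, Urod or Ppox, which were also highest in an erythroid stage, had a match.
Alas2: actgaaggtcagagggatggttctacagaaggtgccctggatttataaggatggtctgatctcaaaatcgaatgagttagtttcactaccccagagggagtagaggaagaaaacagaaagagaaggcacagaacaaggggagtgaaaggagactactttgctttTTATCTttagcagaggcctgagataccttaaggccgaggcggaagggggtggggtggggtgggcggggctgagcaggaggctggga
Cpox: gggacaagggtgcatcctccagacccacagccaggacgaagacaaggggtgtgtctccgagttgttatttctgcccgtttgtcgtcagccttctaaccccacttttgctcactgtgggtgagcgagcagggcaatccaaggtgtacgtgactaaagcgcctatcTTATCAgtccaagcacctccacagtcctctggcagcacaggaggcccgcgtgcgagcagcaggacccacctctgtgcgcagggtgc
Uros: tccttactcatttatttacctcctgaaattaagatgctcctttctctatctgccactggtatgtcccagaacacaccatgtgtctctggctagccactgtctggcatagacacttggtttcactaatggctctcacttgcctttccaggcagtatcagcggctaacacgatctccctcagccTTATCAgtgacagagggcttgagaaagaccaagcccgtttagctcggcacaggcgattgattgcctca
Alas1: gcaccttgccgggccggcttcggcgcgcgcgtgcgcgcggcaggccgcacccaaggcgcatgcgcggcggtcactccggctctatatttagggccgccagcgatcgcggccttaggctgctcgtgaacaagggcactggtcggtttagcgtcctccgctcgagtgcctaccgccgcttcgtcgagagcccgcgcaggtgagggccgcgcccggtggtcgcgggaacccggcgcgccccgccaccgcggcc

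Alas2 rose through the erythroid stages, and Alas1, low in all of them, fell from the early to the haemoglobinizing stage. Alas2 in the control rose from 17.8 CPM (14.8 to 21.2) in the early stage to 763 CPM (746 to 781) in the haemoglobinizing and 2382 CPM (2300.2 to 2466) in the late stage. In the MYC library the same stages stood at 4.95 (2.64 to 8.47, 13 UMIs), 561 (533 to 590) and 1576 CPM (1459 to 1700.2). No intervals overlapped between stages of a library or between the libraries within a stage. Alas1 went from 10.8 to 5.27 CPM between the early and haemoglobinizing stages of the control, 2.05-fold lower (1.42 to 2.97), and from 16.01 to 5.60 CPM in those of the MYC library, 2.86-fold lower (1.55 to 5.55). Its late levels, 7.42 and 11.8 CPM from 10 and 5 UMIs, could not be told from either earlier stage. Of the UMIs of both synthases, Alas2 held 62.2% (55.1 to 68.9) in the early stage of the control, 99.3% in the haemoglobinizing and 99.7% in the late stage. In the MYC library it held 23.6% (13.2 to 37.02), 99.0% and 99.3%. The low early value for the MYC library rested on which cells were called early: with 5 other ways of choosing them, named below with the early comparison, it was 70.9% to 86.4%.

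The level of Alas2 mRNA is not the level of its enzyme, since iron regulatory proteins bind a hairpin, the iron-responsive element, in the 5′ untranslated region of the mRNA and hold back its translation when iron is scarce. The element was found in the GENCODE transcripts Alas2-201 and Alas2-202, and it is shown to mark where such control acts, with its loop in capitals; the counts here cannot report on it.
Alas2 element: gttcgtcctCAGTGCagggcaaca

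Fech followed Alas2 in rising through all 3 stages. Its levels in the control were 184, 881 and 1493 CPM, and those in the MYC library 67.5, 542 and 881 CPM. From the early to the late stage it rose 8.11-fold (7.56 to 8.70) in the control and 13.1-fold (10.9 to 15.7) in the MYC library. Urod gained less, with 144, 374 and 397 CPM in the control and 158, 430.3 and 633 CPM in the MYC library. Both ends of the pathway, the synthase and the ferrochelatase, were therefore at their highest in the late stage.

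Cpox and Alad were instead highest in the haemoglobinizing stage of both libraries, and Uros and Ppox in that of the control. Cpox went from 640.15 to 1514 and then 314 CPM in the control, a late level 4.82-fold lower than the haemoglobinizing one. In the MYC library it went from 290.04 to 1091 and 439 CPM, 2.48-fold lower. Alad fell from 603 to 72.7 CPM in the control, 8.29-fold lower, and from 572 to 215 CPM in the MYC library, 2.66-fold lower. Its early levels were 309 and 189 CPM. The size of these late falls depended on the cells and stages used: over 10 alternatives the log2 ratio of late over haemoglobinizing cells ran from -3.26 to -1.18 (control) and -1.50 to -0.37 (MYC) for Alad, and from -2.42 to -0.98 and -1.56 to -0.21 for Cpox. The smallest falls came with stages set by haemoglobin share. Uros had 64.4, 189 and 71.9 CPM in the control and 20.6, 149 and 129.95 CPM in the MYC library. Ppox had 58.3, 192 and 117 CPM in the control and 42.3, 189.96 and 163 CPM in the MYC library. Late and haemoglobinizing levels of the MYC library did not differ beyond counting error for Uros (ratio 0.87, 0.65 to 1.16) or Ppox (0.86, 0.66 to 1.11).

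Haemoglobin transcripts fill much of the late total, which lowers the CPM of every other gene. In CPM taken over UMIs other than haemoglobin, the late over haemoglobinizing ratio was still under 1 for Alad (0.18 for the control, 0.53 for the MYC library) and Cpox (0.31 and 0.57). Uros differed, at 0.57 (0.46 to 0.70) in the control and 1.24 (0.92 to 1.65) in the MYC library. Ppox stood at 0.92 (0.78 to 1.08) and 1.22 (0.93 to 1.57), so its late and haemoglobinizing levels were not distinguishable on this scale. Urod rose 1.59-fold and 2.09-fold, Fech 2.54-fold and 2.31-fold, and Alas2 4.68-fold and 3.998-fold.

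**Figure D2:**
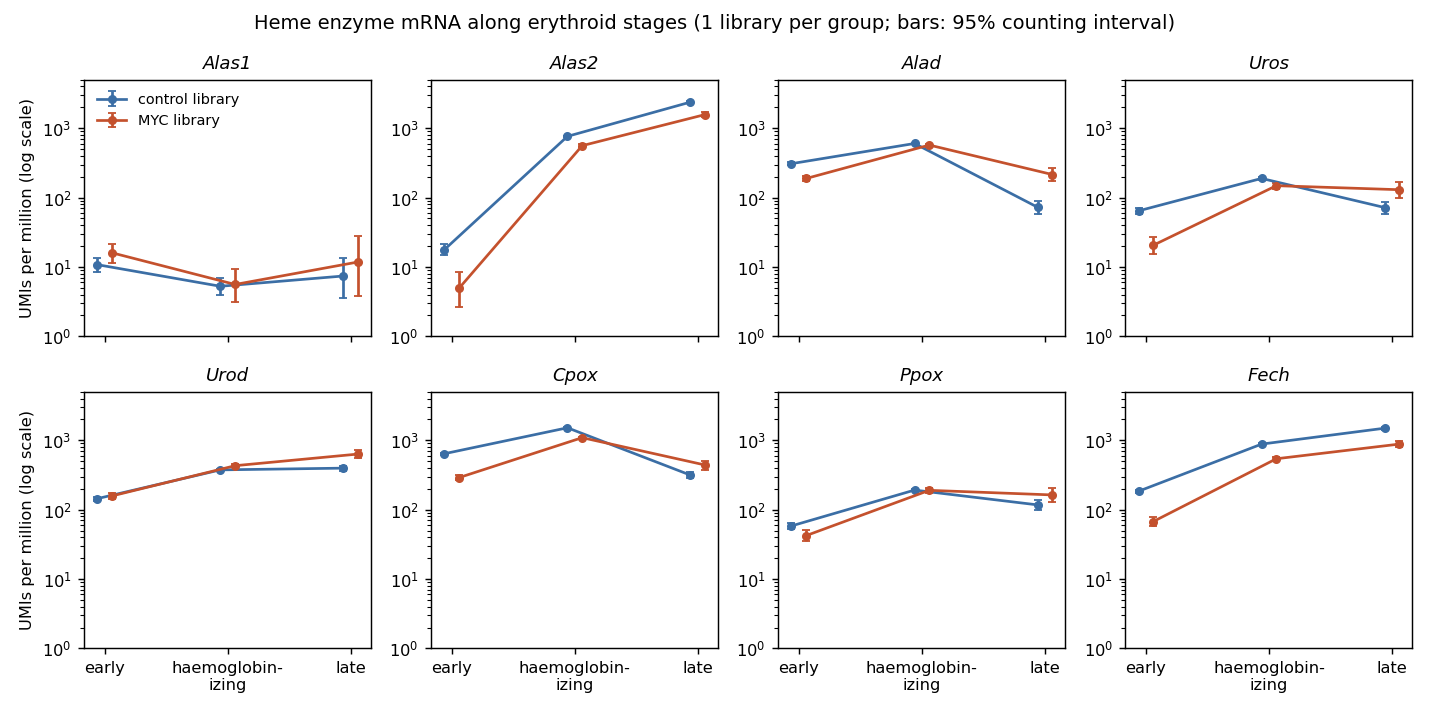
Level of each enzyme (CPM, log axis) in the early, haemoglobinizing and late erythroid stages of the control and MYC libraries; points are 1 library each and bars are 95% counting intervals. Alas2 and Fech climb through all stages in both libraries, whereas Alad and Cpox peak in the haemoglobinizing stage.

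The comparison between the libraries asked which enzyme transcripts differed in erythroid cells with the LSL-MYC genotype. Over all staged erythroid cells, 4 of the 8 enzymes were lower by at least 1.5-fold in the MYC library and none was higher. Among the 9309 genes with at least 50 UMIs over both libraries, 20.1% were lower and 15.2% higher by as much. Fech fell from 660 to 349 CPM (log2 ratio -0.92, -0.99 to -0.85), Cpox from 1093 to 676 CPM (-0.69, -0.74 to -0.64), Alas2 from 597 to 381 CPM (-0.65, -0.72 to -0.58) and Uros from 133 to 88.5 CPM (-0.59, -0.73 to -0.45). Alad stood at 452 and 370.03 CPM (-0.29), Ppox at 135 and 120.3 CPM (-0.17) and Urod at 288 and 320.4 CPM (0.15). The median over the 8 enzymes was -0.44, against -0.09 over all genes. The count of lower enzymes fell to 3 in CPM without haemoglobin, to 2 (Fech and Cpox) under median-of-ratios scaling (15.6% of all genes) and to 1 (Fech) as a mean over cells. Alas1 passed 1.5-fold upward under the last 2 of these, with doublets kept and with under 5% mitochondrial UMIs. Alas1 had 7.54 and 10.8 CPM (0.52, 0.07 to 0.96), from 139 and 62 UMIs. Early cells were 13.8% of staged erythroid cells for the control but 19.5% for the MYC library, and haemoglobin 9.60% and 10.8% of their UMIs.

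Within the haemoglobinizing stage 1 enzyme, Fech, was lower by at least 1.5-fold, where 26.6% of all genes were lower and 15.5% higher. Fech stood at 881 and 542 CPM there (-0.70, -0.78 to -0.62). Cpox (-0.47, -0.53 to -0.42) and Alas2 (-0.45, -0.53 to -0.37) were lower by less, and Uros had -0.35. Alad (-0.08, -0.16 to 0.01) and Ppox (-0.01, -0.16 to 0.13) had intervals that included 0, and Urod was higher (0.20, 0.10 to 0.30). The median of the enzymes, -0.21, was close to that of all genes, -0.20. Alas2 turned to 0.20 with cells under 5% mitochondrial UMIs. The Fech call was lost in 7 of 13 alternatives, with log2 ratios from -0.58 to -0.25. Alas1, with 53 and 15 UMIs, stood at 0.09 (-0.85 to 0.94) and ran from -1.02 to 0.33 over the same 13, lower by at least 1.5-fold in 2 of them, as Alas2 was in 1.

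Late cells differed in both directions. Of the 7 enzymes with at least 50 UMIs, 2 were lower and 3 higher by at least 1.5-fold, near the shares of all genes given below. The median of these 7 was 0.48, against 0.11 over all genes. Alas2 (-0.60, -0.72 to -0.48) and Fech (-0.76, -0.92 to -0.60) were lower in the MYC library, where 23.5% of all genes were lower by at least 1.5-fold. Higher were Alad (72.7 and 215 CPM; 1.56, 1.14 to 1.99), Uros (71.9 and 129.95 CPM; 0.85, 0.35 to 1.35) and Urod (397 and 633 CPM; 0.67, 0.46 to 0.89), where 33.6% of all genes were higher by as much. Cpox and Ppox both had 0.48, with intervals above 0, and Alas1, with 10 and 5 UMIs, had too few to count. Late cells of the MYC library were shallower, with a median of 3639 UMIs against 5568.5 in the control. Their summed late erythroid markers were lower (12029 against 20280 CPM, 12 of 12 detected in both), and their summed mature neutrophil markers higher (7962 against 4577 CPM, 9 and 10 of 10 detected), while the median marker of that list was lower (20.1 against 26.7 CPM). Summed monocyte (314 against 122 CPM) and macrophage markers (44.9 against 13.3 CPM) were also higher, and summed mature B markers lower (30.7 against 74.2 CPM). The part of maturity and of RNA from other classes in the late differences was not tested. With cells under 5% mitochondrial UMIs, Alad turned to -0.26, Uros to -0.06 and Cpox to -0.72 in late cells. Over 13 alternatives the late call was lost in 4 for Urod, 3 for Alas2, 2 for Uros and 1 each for Fech and Alad.

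Early cells had the widest differences, but these rested on which cells were called early. Alas2 (-1.84, -2.79 to -1.02), Uros (-1.65), Fech (-1.45), Cpox (-1.14) and Alad (-0.71) were lower in the MYC library by at least 1.5-fold, as were 23.5% of all genes, and 9.37% were higher. Ppox (-0.46, -0.78 to -0.16) was lower by less, and Alas1 (0.57, -0.01 to 1.13) and Urod (0.13, -0.04 to 0.30) had intervals that included 0. Haemoglobin was lower in these cells too, and the summed haemoglobinizing markers fell from 4489 to 1071 CPM. Alas2 in early cells turned to between 1.06 and 2.54 with 5 other ways of choosing the cells. These were a clustering resolution of 2, a mitochondrial limit of 5%, a minimum of 1000 UMIs and 500 genes, doublets retained, and separate sub-clustering of each library. Fech and Cpox stayed below 0 in these 5 but came closer to it, with Fech from -0.62 to -0.20 and Cpox from -0.61 to -0.23.

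**Figure D3:**
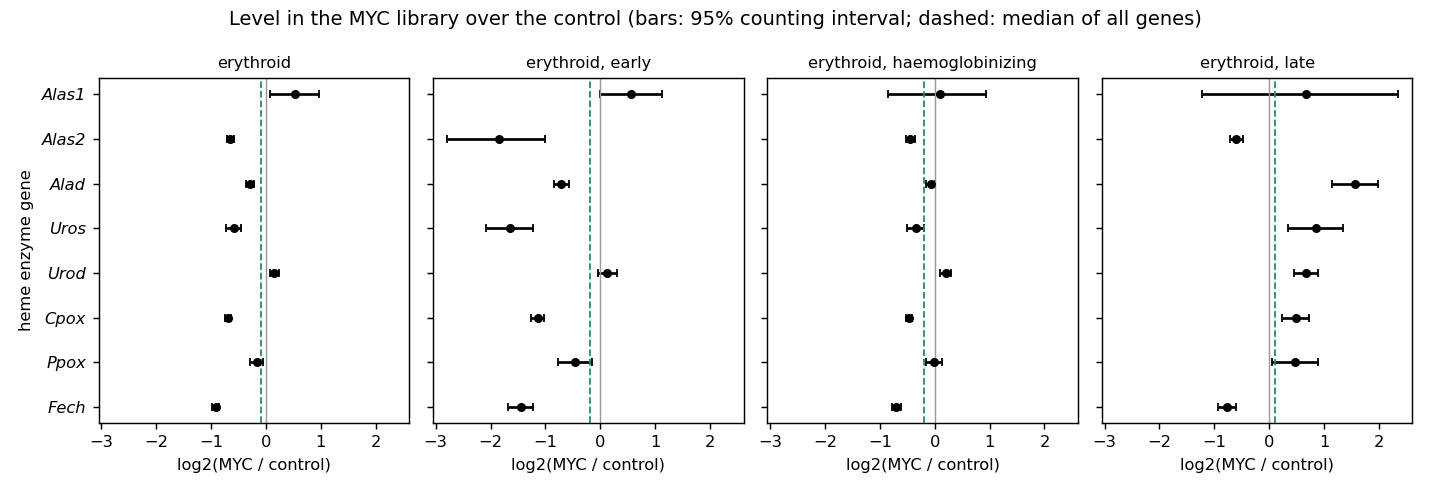
Log2 ratio of each enzyme's level in the MYC library over the control, for all staged erythroid cells and each stage; points are ratios of 1 library to 1 library, bars are 95% counting intervals, the grey line marks 0 and the dashed line the median of all genes. Fech lies left of 0 in all 4 panels, while Alad, Uros and Cpox lie left of it in early and right of it in late cells.

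A sub-cluster of Kit- and Myb-rich cells that both libraries filled, with 89 and 61 cells, was compared on its own, a choice made after the data were seen. Cpox there stood at 487 CPM for the control against 258 CPM (-0.91, -1.04 to -0.78). Fech had 123 and 61.7 CPM (-0.99, -1.26 to -0.73), Uros 33.4 and 18.6 CPM (-0.84, -1.36 to -0.35) and Alad 222 and 169 CPM (-0.39, -0.56 to -0.22). Urod was higher, with 111 and 147 CPM (0.41, 0.21 to 0.61), and Alas1 as well (10.8 and 17.4 CPM; 0.68, 0.05 to 1.31). Alas2 had only 23 and 5 UMIs. The median of all genes was -0.24, and haemoglobin made up 0.08% and 0.02% of UMIs.

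Cells were also compared in 6 ranges of the haemoglobin share of their UMIs and in CPM taken over UMIs that are not haemoglobin. In the lowest range, under 0.1%, the shares themselves differed, 0.051% in the control against 0.023%. Fech was lower in the MYC library in all 6 ranges, with log2 ratios from -1.04 to -0.55 and intervals below 0. In the range from 5% to 15% haemoglobin, with 285 and 79 cells, it had 918 and 570.2 CPM (-0.69, -0.82 to -0.55). Alas2 had 772 and 510.5 CPM there (-0.60, -0.74 to -0.45) and Cpox 1715 and 1170 (-0.55, -0.65 to -0.46). Cpox was lower up to 30% haemoglobin and higher above it (0.66, 0.52 to 0.81). The median of all genes was -0.23 to -0.05 in the ranges up to 30% but 0.47 above, beside 0.66 for Cpox and 0.51 for Urod there. From the lowest range to the highest, the median of the enzymes was -0.24, -0.15, -0.22, -0.17, -0.32 and 0.41. That of all genes was -0.23, -0.17, -0.18, -0.14, -0.05 and 0.47. From 0.1% to 1%, Alas1 had 0 UMIs in the MYC library and was left out of the median. Uros had an interval below 0 in 3 of the 6 ranges. Alad had intervals that included 0 between 0.1% and 30%, and was higher above 30%, with 303 and 709 CPM (1.23, 0.996 to 1.46). Urod was above 0 in each range, from 0.12 to 0.58, with intervals that included 0 from 5% to 30%. Between 0.1% and 1% the MYC library had only 8 cells, and Alas2 (0.84, -0.44 to 1.91) and Ppox (1.07) stood above 0 there.

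**Figure D4:**
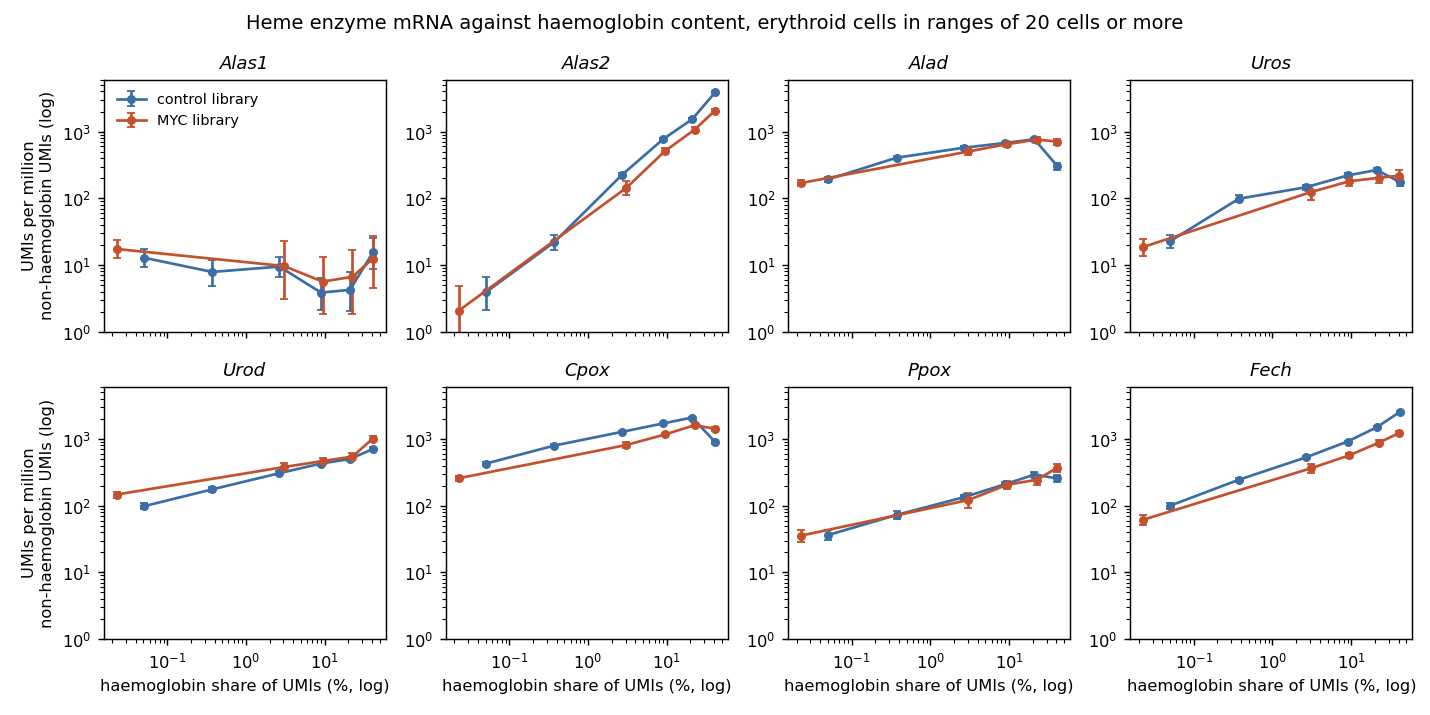
Level of each enzyme (CPM over UMIs that are not haemoglobin, log axis) against the haemoglobin share of UMIs (percent, log axis), for staged erythroid cells pooled by haemoglobin range in the control and MYC libraries; bars are 95% counting intervals and ranges under 20 cells are left out. The Fech line of the MYC library runs below the control throughout, the Urod line of the MYC library lies above the control, and Alad and Cpox fall at the highest haemoglobin share in the control.

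Counted per cell, the differences came to a few UMIs. Median UMIs in a haemoglobinizing cell, control against MYC genotype, were 11 and 7 for Fech, 20 and 15 for Cpox, and 9 and 7 for Alas2. Median totals were 11969 and 13907 UMIs. After each cell was thinned to 2000 UMIs, a Fech UMI was kept by 82.7% of cells (79.7 to 85.4) in the control and 69.7% (62.6 to 76.3) with the MYC genotype. The shares for Alas2 were 77.8% and 63.8%, with 98.2% and 96.3% before thinning, and 24 and 4 cells were too shallow to be thinned.

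Other genes of the pathway and its supply were counted over all staged erythroid cells, from lists chosen with earlier results of these data known, against 20.1% of all genes lower and 15.2% higher. Of 15 genes that move heme or its precursors, 14 had at least 50 UMIs; 4 were lower and 2 higher by at least 1.5-fold, with a median of -0.22. Slc25a37, or mitoferrin 1, which brings iron into the mitochondria of erythroblasts, fell from 1021 to 473 CPM (-1.11, -1.17 to -1.05). Abcb10, a mitochondrial transporter needed for haemoglobin synthesis, fell from 383 to 185 CPM (-1.05, -1.15 to -0.96). Abcb6, a porphyrin transporter, went from 75.5 to 34.4 CPM (-1.13, -1.36 to -0.92). The heme exporter Flvcr1 (0.64, from 93 and 45 UMIs) and the outer membrane protein Tspo (219.6 to 389 CPM; 0.82) were higher. Tmem14c, a carrier of protoporphyrinogen, stood at 831 and 906 CPM (0.12).

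Genes of iron supply and regulators of the pathway were counted in the same way. Of 4 genes for iron uptake, 3 had enough UMIs and 2 were lower, the ferrireductase Steap3 (87.3 to 39.1 CPM; -1.16) and the transporter Slc11a2 (63.9 to 38.9 CPM; -0.72). The transferrin receptor Tfrc stood at 826 and 885 CPM (0.10). Of 13 regulators and chaperones, 12 had enough UMIs and 4 were lower, with a median of -0.53 and none higher. In haemoglobinizing cells 2 of the 12 were lower, where 26.6% of all genes were. Lower over all staged cells were Tal1 (362 to 213 CPM; -0.77), Ireb2 (-0.69), Pgrmc2 (-0.71) and Eif2ak1 (186 to 119 CPM; -0.64), the kinase that halts translation when heme is short. Gata1 (118 and 87.5 CPM; -0.43) and Klf1 (375 and 257 CPM; -0.55), which drive erythroid transcription, were lower by less than 1.5-fold. Of 11 genes for iron-sulfur clusters, which ferrochelatase needs, 3 were higher and none lower: Hscb (0.94), Fdxr (0.96) and Fdx2 (0.62). Among 4 heme breakdown genes 3 had enough UMIs, and Blvrb, a biliverdin reductase of red cells, rose from 944 to 1547 CPM (0.71, 0.68 to 0.75). Hmox1 had 15 and 4 UMIs. None of the 4 globin genes passed 1.5-fold, and their median was 0.09.

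Outside the erythroid lineage Alas1 was the enzyme that set classes apart. Granulocyte progenitors had the most, 377 CPM (367 to 387) in the control against 394 CPM (383 to 405). Immature neutrophils had 115 and 141 CPM, monocytes 85.5 and 93.7, mature neutrophils 74.2 and 93.8, basophils or mast cells 50.1 and 51.4, and stem or multipotent progenitors 48.98 and 74.96 CPM. T or NK cells (26.3 and 17.1) and mature B cells (19.1 and 29.4) were lower, and staged erythroid cells (7.54 and 10.8) lowest of these classes. Basophils and stem cells had overlapping intervals in the control, as did T or NK and mature B cells. Overlaps in the MYC library were between monocytes and mature neutrophils, basophils and mature B cells, mature B and T or NK cells, and T or NK cells (9.37 to 28.7 CPM) and staged erythroid cells (8.30 to 13.9 CPM). Of the 2 granulocyte progenitor clusters, the one with more Mpo, the heme-containing myeloperoxidase, also had more Alas1. Cluster 4 had 517 and 537 CPM of Alas1 beside 11579 and 7540 CPM of Mpo. Cluster 3 had 211 and 235 CPM beside 1263 and 951 CPM. Between the libraries the 2 genes did not move together: in both clusters Mpo was lower in the MYC library and Alas1 was not. After thinning to 2000 UMIs, 45.2% and 47.8% of granulocyte progenitors kept an Alas1 UMI, against 1.68% and 1.08% of haemoglobinizing cells.

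Alas1 was higher by at least 1.5-fold in stem or multipotent progenitors (0.61, 0.34 to 0.88), where 6.09% of genes were that much higher, but had 0.06 (-0.08 to 0.21) there at a clustering resolution of 2 and 0.51 as a mean over cells. It also passed 1.5-fold in mature B cells (0.63, -0.18 to 1.38), where 6.71% were and where it had 60 and 20 UMIs. Alas1 lost this call with doublets kept, with under 5% mitochondrial UMIs and as a mean over cells, and ran down to -0.04. In immature (0.30, 0.23 to 0.37) and mature neutrophils (0.34, 0.20 to 0.48) it was higher by less, and in granulocyte progenitors the ratio was 0.06. The remaining enzymes were low in these classes. In mature neutrophils 6 of the 8 were lower by at least 1.5-fold, where 24.1% of all genes were lower and 8.82% higher. The libraries filled this class from different clusters: clusters 0 and 1 held 1311 and 1082 control cells against 69 and 138, and cluster 2 held 244 against 1771. Within cluster 2, Fech had 38.6 CPM (27.3 to 52.9) in the control and 13.6 (11.3 to 16.3) otherwise, Cpox 28.4 and 14.6, and Alad 11.2 and 9.46 from 11 and 84 UMIs. In immature neutrophils 4 were (16.6% lower and 9.13% higher), and in granulocyte progenitors 3 (25.8% and 4.54%), a count that fell to 0 under median-of-ratios scaling, where 7.66% of all genes were lower. In stem or multipotent progenitors 2 were lower (12.3% of all genes), Alas2 (-1.60) and Cpox (-0.70). There 1 cell held 55.6% of the 45 control Alas2 UMIs. The Cpox call was lost there with doublets kept, as a mean over cells and under median-of-ratios scaling. In monocytes 2 were lower (17.3% and 8.9%), Alas2 (-1.11) and Cpox (-0.77), while Urod had 0.41 (0.25 to 0.57) there. Among 6 enzymes with enough UMIs in T or NK cells 4 were lower (15.2% and 10.2%), among 5 in mature B cells 1 (29.1%), and among 6 in basophils or mast cells 0 were lower or higher (21% and 9.32%). The medians over the enzymes and over all genes were -0.41 and -0.30 in granulocyte progenitors, -0.27 and -0.15 in monocytes, -0.20 and -0.12 in stem or multipotent progenitors, and -0.22 and -0.30 in mature B cells. They were -1.18 and -0.23 in mature neutrophils, -0.68 and -0.19 in immature neutrophils, -0.70 and -0.08 in T or NK cells, and 0.07 and -0.19 in basophils or mast cells. Of the 4 lower enzymes in T or NK cells, Alas1 (-0.62, -1.56 to 0.22) and Ppox (-0.79, -1.99 to 0.24) had intervals that included 0, and the Alas1 call was lost in 3 of 8 alternatives. Alas2 fell in immature neutrophils from 9.80 to 3.93 CPM (-1.32, -1.65 to -0.999) and Cpox from 17.7 to 8.81 CPM (-1.005, -1.23 to -0.78). Haemoglobin, which these cells do not make, fell beside them from 0.15% to 0.09% of UMIs in immature and from 0.30% to 0.15% in mature neutrophils.

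Alas2 outside the erythroid lineage was set against haemoglobin, which those cells do not make. For each 1000 haemoglobin UMIs, haemoglobinizing cells held 6.45 Alas2 UMIs (6.31 to 6.60). Immature neutrophils held 6.70 (5.93 to 7.55), granulocyte progenitors 6.40, monocytes 6.77, mature B cells 6.15 and T or NK cells 6.21, while mature neutrophils at 7.72 (6.73 to 8.80) and stem or multipotent progenitors at 10.3 (7.504 to 13.8) were above. The part of free RNA in these levels was not tested. Haemoglobinizing cells of the MYC library held 3.38 (3.21 to 3.56), immature neutrophils 4.31 (3.56 to 5.18), mature neutrophils 5.93 (4.76 to 7.31) and monocytes 6.57 (5.21 to 8.17). Its mature B cells held 3.99, stem or multipotent progenitors 6.58, granulocyte progenitors 6.69, T or NK cells 10.04 and basophils or mast cells 11.5. Alas2 thus did not keep 1 ratio in the MYC library. Cpox and Fech did not keep 1 ratio in either library. Cpox in the control had 12.8 per 1000 haemoglobin UMIs in haemoglobinizing cells and 12.1 in immature and 12.3 in mature neutrophils, but 35.8 in granulocyte progenitors, 33.95 in monocytes and 49.6 in stem or multipotent progenitors. Fech had 7.44 in haemoglobinizing cells and 34.8, 26.97 and 30.2 in the same 3 classes. Fech in immature (11.4, 10.4 to 12.5) and mature neutrophils (10.3, 9.12 to 11.5) and Cpox in T or NK cells (28.2), basophils or mast cells (29.0) and mature B cells (24.3) of the control were also above the haemoglobinizing ratio. So was Fech in T or NK cells (17.3), basophils or mast cells (17.2) and mature B cells (16.2) of the control. Single cells mattered in the stem class: 1 cell held 55.6% of the 45 control Alas2 UMIs there.

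**Figure D5:**
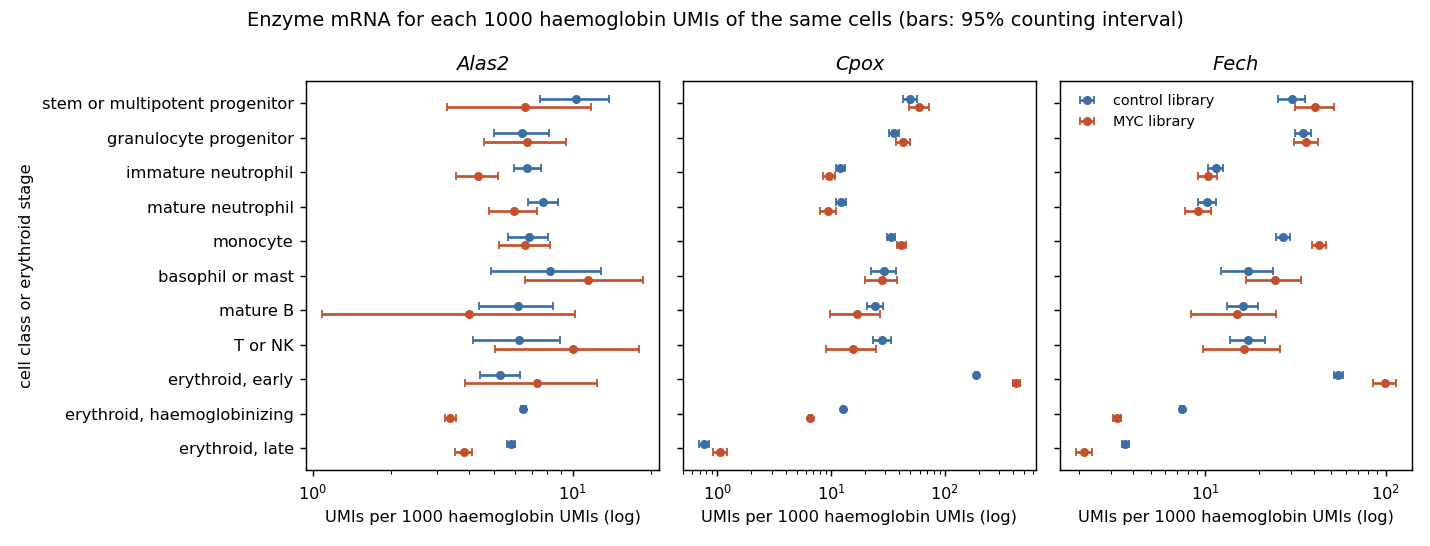
UMIs of Alas2, Cpox and Fech for each 1000 haemoglobin UMIs of the same cells (log axes) in each class or erythroid stage of the control and MYC libraries; bars are 95% counting intervals. Control values of Alas2 lie between 5.28 and 10.3 in all rows shown and those of the MYC library between 3.38 and 11.5. Cpox and Fech are high in early erythroid cells and in stem, granulocyte progenitor and monocyte rows.

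The genes whose levels were most like each enzyme's were taken over 22 class or stage sums of both libraries, among 5964 genes that reached 50 CPM in 1 of them, by Pearson correlation of log2(CPM + 1). The sums share their libraries, the erythroid gradient and any free RNA, so the values only describe these data. Alas2 was most like Hba-a1, Hbb-bs and Hbb-bt (r from 0.985 to 0.989). Fech was most like Ranbp10, Epb42 and Isca1 (0.977 to 0.983), Cpox like Ubac1, Rhd and Tspan33 (0.969 to 0.981), Alad like Ubac1, Cpox and Lmna (0.958 to 0.961) and Uros like Pigq, Vangl1 and Ubac1 (0.962 to 0.974). Genes among the most like Urod were Glrx5 (0.957) and Fam210b (0.955), and among those most like Ppox Kel (0.959) and Btnl10 (0.955). Kel, Rhd and the 3 globin genes were also stage markers. Alas1 had a different pattern, with Slc8b1, Plin3 and Palm (0.927 to 0.942) as its nearest genes and a correlation of -0.72 with Alas2.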

How the data were processed

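The deposited values are UMI counts in whole numbers for each gene in each barcode. The file headers name Cell Ranger 6.0.0 as the software, and the submitters' processing notes name Cell Ranger 6.0, Seurat, GRCm38 and mm10. Members and lists were chosen with earlier results of these data known. Cells with at least 500 UMIs, 200 genes and under 10% mitochondrial UMIs were kept. Doublets were scored in each library with Scrublet in scanpy 1.11.5. The automatic threshold marked 558 cells in the control but 0 of 12896 in the other library, so a common cut of 0.2, set after the data were seen, removed 558 (3.61%) and 356 (2.76%).

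Cells were clustered with the Leiden method (resolution 1, 15 neighbours, 30 components, 2000 variable genes) without the enzymes and the heme and iron lists, and named by marker scores. Clusters whose median UMI count was too far below their library's stayed unnamed. Erythroid clusters were sub-clustered (15 components) and staged by their highest marker score. Early required a haemoglobinizing score of at most 0, a rule also set after the data were seen, as was leaving sub-clusters led by other classes without a stage. The score rule moved sub-clusters 9 (171 control and 3 MYC cells), 12 (163 and 2) and 15 (0 and 72) from early to haemoglobinizing. The haemoglobinizing score of sub-cluster 15 was 0.04. UMIs were summed per class and library, with exact Poisson, Clopper-Pearson and conditional binomial intervals at 95%; PCR and cell-to-cell error are not covered. Genes with at least 50 UMIs over both libraries were compared, 0 replaced by 0.5 counts. The rule for named genes was all 8 enzymes in classes with 100 cells or more in both libraries, and transport and breakdown genes past 1.5-fold; outside erythroid cells counts stand for most enzymes, some genes are not reported here, and other genes were named after their values were seen. The ratio script was tested on simulated counts. Alternatives covered filters, doublets, resolution, scaling and staging.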

Additional observations from a re-analysis of the deposited data

How the results depend on the processing

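No paired analysis was possible because each group had 1 library, and no library could be left out. Low UMI counts limit, among others, Alas1 in erythroid cells and Alas2 in early cells. The enzymes' median log2 ratio over staged erythroid cells (-0.44) became -0.56 with cells under 5% mitochondrial UMIs, -0.26 when cells were averaged and -0.34 under median-of-ratios scaling; single enzymes that turned there were Urod (-0.0136 under 5% mitochondrial UMIs) and Ppox (0.0945 when cells were averaged). The haemoglobinizing median (-0.21) became -0.00869 with median-of-ratios scaling. The late median over all 8 enzymes (0.58) became -0.16 under 5% mitochondrial UMIs and 0.13 with stages from ranges of the haemoglobin share.

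The early median (-0.93) became -0.0716 at Leiden resolution 2, where Alas2 was 1.06 and Ppox 0.13. It turned to 0.29 with cells under 5% mitochondrial UMIs (Alas2 2.54, Alad 0.0496, Uros 0.0679, Ppox 0.51), to 0.0138 with at least 1000 UMIs and 500 genes (Alas2 1.30, Ppox 0.21), to 0.0139 with doublets kept (Alas2 1.65, Ppox 0.23) and, in a choice added after the data were seen, to 0.0502 with each library sub-clustered on its own (Alas2 1.42, Ppox 0.22). Under 5% mitochondrial UMIs, Alas2 in haemoglobinizing cells was 0.20, and in late cells Alad was -0.26, Uros -0.0582 and Cpox -0.72. Median mitochondrial shares were 5.01% (control) and 3.87% (MYC) in early, 2.33% and 1.55% in haemoglobinizing, and 0.74% and 0.75% in late cells. The cause of these turns was not tested.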

Other observations

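Trib3, Ddit3, Atf5 and Atf4, 4 genes chosen after their values were seen, had higher CPM in the MYC library in each erythroid stage; Atf4 encodes a stress-response transcription factor. No list was tested. Trib3 and Atf5 were among the leading genes of a late and a haemoglobinizing sub-cluster found almost only in that library, and Ddit3 of the latter. A further haemoglobinizing sub-cluster of 72 cells was led by none of the 3. In haemoglobinizing cells Trib3 went from 1.09 CPM (control) to 157 CPM (11 and 422 UMIs). Ddit3 stood at 47.04 and 293 CPM (log2 ratio 2.64, 2.47 to 2.80), Atf5 at 8.55 and 125 CPM, and Atf4 itself at 233 and 473 CPM (1.02, 0.92 to 1.12). Eif2ak1, the heme-regulated kinase that acts upstream of Atf4, was at 233 and 157 CPM in the same cells (-0.57, -0.72 to -0.42). In early cells Atf4 had 122 and 141 CPM (0.21, 0.03 to 0.39), Ddit3 23.5 and 54.5 CPM (1.22, 0.88 to 1.55), Atf5 4.55 and 13.3 CPM (1.55) and Trib3 1 and 45 UMIs. In late cells Ddit3 had 11.9 and 451 CPM, Atf4 72.7 and 272 CPM, Trib3 2 and 88 UMIs and Atf5 1 and 104 UMIs.

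Macrophages, which engulf erythroid nuclei and old red cells, were 637 cells in the MYC library and only 20 in the control. In the MYC library they held Alas2 at 33.7 CPM and haemoglobin at 0.95% of UMIs, or 3.53 Alas2 UMIs for each 1000 haemoglobin UMIs, against 3.52 in its staged erythroid cells. Other enzymes differed on this scale, with Cpox at 2.83 in macrophages and 6.24 in erythroid cells, and Fech at 3.94 and 3.22. Plasma cells of the MYC library held 3.55 Alas2 UMIs. The source of the macrophage Alas2 UMIs was not tested. Barcodes of a low-UMI cluster left unnamed, 2452 of them control and 2586 not, with medians of 744 and 801.5 UMIs, held haemoglobin at 2.47% and 1.31% of UMIs and 7.01 and 6.38 Alas2 UMIs for each 1000 haemoglobin UMIs.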
